A study of Homo sapiens with 2 samples.

Results

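Gene deserts, here runs of 20 or more consecutive 50 kb windows (called probes, so at least 1 Mb) without an annotated gene, were examined in 4C-seq data from U2OS, a human osteosarcoma cell line. The deposited annotation marks a gene-free probe as having no gene found. Sorting the probes by chromosome and start on all autosomes except 6, 12 and 17 gave 124 deserts with 6290 probes (314.5 Mb in hg18). These were 12.7% of the 49714 probes on the 19 chromosomes used, and 30.5% of the gene-free probes there, out of 61607 probes in all. Chromosomes 6, 12 and 17 were left out by the rule, and the other autosomes are called unlinked for that reason alone.

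4C joins stretches of DNA that were close together in fixed nuclei, and amplifies whatever was joined to a bait fragment. Here the bait lay beside the I-SceI site of DRGFP, an integrated reporter of double-strand break repair by homologous recombination, and the study asked which parts of the genome lie near it. Both libraries came from the same line, carrying the transgenes DRGFP, TRE-I-SceI and Tet-On (Clontech), with no treatment recorded. They form 1 group, replicates 1 and 2, which the series' text describes as independent experiments, and there is no control group. The labels do not say whether the line is a single clone. The libraries held an inferred 944456 and 454091 reads, with the smallest deposited value taken as 1 read and the scale as 1000000. Reads fell at 8.06% and 8.63% of all probes, and 19.5% and 19.3% of the reads lay on the 19 chromosomes used.

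Gene deserts make up a large part of the gene-poor genome. They are typically AT-rich, replicate late and sit at the nuclear lamina in many cell types, within inactive chromatin. Some flank developmental or neuronal genes and hold their distant enhancers. A separate class of gene-free sequence, the centromeres, the blocks of heterochromatin beside them and the short arms of the acrocentric chromosomes, was largely left as gaps in assemblies of this age. A gap cannot receive reads, whatever its place in the nucleus.

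Deserts had reads less often than the rest of the 19 chromosomes, and 52.6% of their probes lay in long read-free stretches, some of them inside deserts that had reads elsewhere. Reads reached 205 of the 6290 desert probes in replicate 1 (3.26%, 95% Clopper-Pearson interval 2.83% to 3.73%) and 216 in replicate 2 (3.43%, 3.0% to 3.91%). Over all probes of the 19 chromosomes 6.54% and 7.00% had reads. In shorter gene-free runs, of 1 to 19 probes, the shares were 6.90% (6.49% to 7.33%) and 7.77% (7.34% to 8.22%) of 14300 probes. In probes that overlap a gene they were 7.07% and 7.39% of 28915. The deserts thus lay below the shorter runs by 3.99 ± 0.489 percentage points and below gene-overlapping probes by 3.88 ± 0.101 points (mean ± SD of the replicates, n = 2), in the same direction in both replicates and by more than their SD. The intervals describe counting error alone: reads of one PCR product are not separate molecules, and neighbouring probes are not independent. Probes are not replicates of a condition, so no p-value is given, and 2 libraries cannot give an exact sign-flip p below 0.5.

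Of the 124 deserts, 16 had no read in either replicate and 108 had at least 1. The 16, chosen for having no read, held 2179 of the 6290 probes. The 5 longest of them held 1784 of those probes. They were the run of 20.5 Mb on chromosome 1 (121050001 to 141550000, between FAM72B and C1orf152), the first 18.3 Mb of chromosome 15, a run of 18.05 Mb on chromosome 9 (47150001 to 65200000, between FAM27A and FAM74A4), the first 17.9 Mb of chromosome 13 and the first 14.45 Mb of chromosome 22. The next, of 3.35 Mb on chromosome 11 (51400001 to 54750000), lies between OR4C46, an olfactory receptor gene, and TRIM48. Runs of 62 probes on chromosome 4 (49300001 to 52400000) and 61 probes on chromosome 21 (10250001 to 13300000) complete the 8 that were 60 or more probes long. These positions lie in acrocentric short arms or at centromeres. Whether every window there is an assembly gap was not tested, as no hg18 sequence or gap list was used.

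The other 8 deserts without reads were 20 to 38 probes long. They include the run from 21250001 to 22250000 on chromosome 2, beside APOB, which encodes the main protein of low-density lipoprotein. The run from 165150001 to 166600000 on chromosome 5 precedes ODZ2 (now TENM2), a teneurin gene. Of the 8, 1 on chromosome 18 (25350001 to 26800000) and both on chromosome 20 (26150001 to 28050000 and 28300001 to 29300000) lie wholly within longer read-free stretches that extend beyond them. The remaining 5 were 20 to 29 probes long. They include a run on chromosome 2 (89950001 to 91000000) between IGKC and TEKT4. Another is on chromosome 18 (15350001 to 16750000) between ANKRD30B and ROCK1. Deserts of 20 to 39 probes had reads at 6.05% and 6.88% of probes. The number of detected probes to be expected in single runs of this length was not computed. Why these 5 had none was not tested, nor whether any of them holds an assembly gap.

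With the 16 set aside, the other 108 deserts had reads at 4.99% (4.34% to 5.70%) and 5.25% (4.59% to 5.98%) of 4111 probes, still below the 6.90% and 7.77% of the shorter runs. Long read-free sequence remained among them. The longest desert with reads, the first 18.15 Mb of chromosome 14, had 1 read in replicate 1 and 2 reads in replicate 2, all in 1 probe (18050001 to 18100000) 50 kb from its end. The run from 35000001 to 45050000 on chromosome 16, up to SHCBP1, had 1 and 3 reads, at 50 kb and 100 kb from its edge. The first 9.85 Mb of chromosome 21, up to TPTE, had 1 read and 0 reads, at 50 kb from its end. The run from 24150001 to 33850000 on chromosome 19, between ZNF254, a zinc finger gene, and UQCRFS1, which encodes a subunit of respiratory complex III, had 12 and 10 reads, up to 1350 kb from its edge. In all 4 a long core held no read, on chromosome 19 the 160 probes from 24450001 to 32450000. The runs on chromosome 3 (90350001 to 95000000, between EPHA3 and PROS1) and on chromosome 7 (57550001 to 62100000, between ZNF716 and ZNF679) followed in length, with 2 and 0 reads and with 73 and 8 reads.

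A second split was therefore made on reads alone, for probes of every class. On the 19 chromosomes 20 stretches of 60 or more consecutive probes (at least 3 Mb) had no read in either replicate, 61 to 550 probes long and 185.45 Mb in all. They took up 3310 desert probes (52.6%), 125 probes of shorter gene-free runs (0.874%) and 273 gene-overlapping probes (0.944%). Of the 18 deserts longer than 3 Mb, 17 touched such a stretch. Of the 20 deserts that did, 11 had no read at all, and the remaining 9 held 111 and 34 reads in 1353 probes, 1249 of them inside the stretches.

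Outside these stretches the deserts had reads at 6.88% (6.0% to 7.85%) and 7.25% (6.34% to 8.24%) of their 2980 probes in replicates 1 and 2. Shorter gene-free runs had reads at 6.96% (6.55% to 7.39%) and 7.84% (7.40% to 8.29%), and gene-overlapping probes at 7.14% (6.84% to 7.44%) and 7.46% (7.16% to 7.77%). The difference from the shorter runs was -0.337 ± 0.358 points and that from gene-overlapping probes -0.237 ± 0.0339 points (n = 2). The difference from the shorter runs is smaller than the SD of the replicates. That from gene-overlapping probes, -0.261 and -0.213 points in replicates 1 and 2, is larger than its SD. Each SD is the spread of 2 values and does not measure counting error, so it does not make either difference the firmer. The intervals of deserts overlap those of the shorter runs and of gene-overlapping probes in both replicates. An overlap of intervals does not test a difference, so whether either exceeds counting error at this depth was not tested. The stretches were found from the same reads, and taking out read-free probes raises every share, most of all that of the deserts. Read-free runs shorter than 60 probes stay in, among them 5 whole deserts. Whether these hold assembly gaps was not tested.

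Letting the other library choose the stretches avoids choosing on the reads measured. Measured in replicate 1 outside stretches of 60 probes without reads in replicate 2, deserts had reads at 6.76% (5.83% to 7.79%), shorter runs at 7.18% (6.74% to 7.64%) and gene-overlapping probes at 7.27% (6.96% to 7.59%). Measured in replicate 2 outside those of replicate 1 the shares were 7.15% (6.21% to 8.18%), 8.01% (7.55% to 8.49%) and 7.62% (7.31% to 7.95%). The intervals overlap again. Stretches of 100 probes leave more read-free probes among the deserts. With these, deserts had 5.95% (5.17% to 6.81%) against 6.99% (6.58% to 7.43%) in shorter runs in replicate 1. In replicate 2 the shares were 5.96% (5.21% to 6.79%) against 7.82% (7.38% to 8.27%). The desert interval was apart from that of the shorter runs in replicate 2 only. Gene-overlapping probes had 7.12% (6.82% to 7.42%) and 7.45% (7.15% to 7.76%), apart from the desert interval in both replicates. In replicate 1 the nearer limits were only just apart, at 6.81% and 6.82%. An overlap of intervals does not test a difference, so the overlap in replicate 1 does not place that difference within counting error. Inside the stretches of 60 probes chosen by the other library, desert probes had reads at 0.763% of 3672 in replicate 1 and 0.590% of 3562 in replicate 2. Of these probes 3310 lay in the stretches without reads in either replicate. The share inside was not computed for the other classes, so these values are not set against them.

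**Figure D1:**
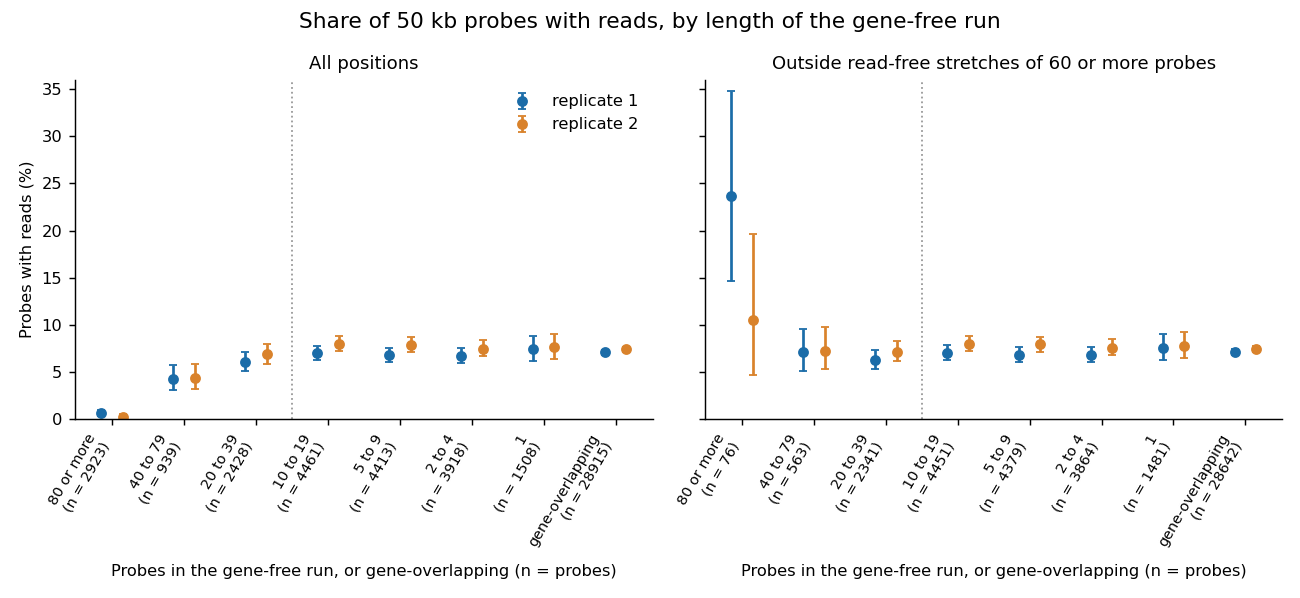
Share of 50 kb probes with reads (y axis, percent) by the number of probes in the gene-free run and in gene-overlapping probes (x axis), for replicates 1 and 2, with 95% Clopper-Pearson intervals; deserts lie left of the dotted line. Over all positions (left) the share was 0.616% and 0.274% in runs of 80 or more probes and 6.05% and 6.88% in runs of 20 to 39; outside read-free stretches (right) runs of 20 to 79 probes sit beside the shorter ones, and the 76 probes left in the longest runs border stretches whose ends the reads set.

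Length separated the deserts in the same way. The 11 deserts of 80 or more probes had reads at 0.616% and 0.274% of 2923 probes, and the 17 of 40 to 79 probes at 4.26% and 4.37% of 939. The 96 deserts of 20 to 39 probes had 6.05% and 6.88%, and runs of 10 to 19 probes, just outside the rule, 7.02% and 7.98%. Outside the read-free stretches the shares were 7.10% and 7.28% for 40 to 79 probes and 6.28% and 7.13% for 20 to 39. The 76 probes left in the longest class border stretches that reads delimit, so their share is set by the split and is not a measurement. At the threshold itself, the 16 runs of exactly 20 probes had reads at 7.19% and 5.31% of probes, and the 14 runs of 19 probes at 6.77% and 8.65%, with no step that both replicates share.

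**Figure D2:**
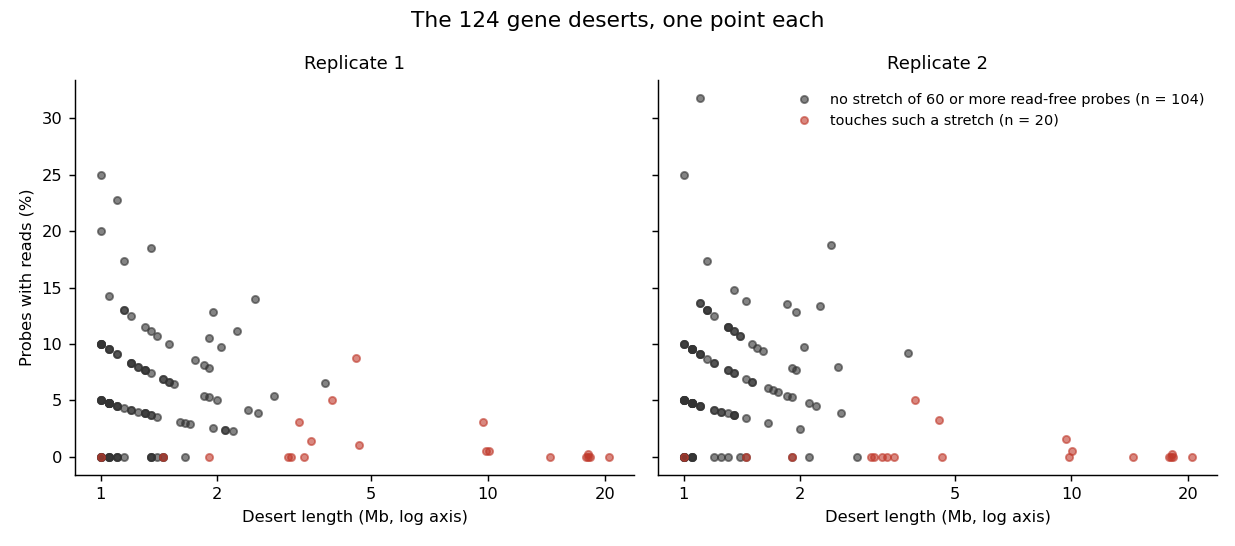
Share of probes with reads (y axis, percent) against length (x axis, Mb, log scale) for each of the 124 deserts, by replicate; red points touch a read-free stretch of 60 or more probes (20 deserts) and dark points do not (104). The dark points run up to 25% in replicate 1 and 31.8% in replicate 2, on lines set by 1, 2 or more probes with reads, while the red points lie at 8.79% or below.

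The 104 deserts that touch no such stretch were 1 Mb to 3.8 Mb long. The share of probes with reads ran from 0% over a median of 5.0% to 25% in replicate 1, and from 0% over 5.97% to 31.8% in replicate 2. Reads were present in both replicates in 73 of them, in at least 1 replicate in 99, and in neither in 5. The median desert of the 104 held 3 and 9 reads, and the richest 775 and 346. Across the 106 deserts with at least 20 probes outside the stretches, the shares of the 2 replicates had a Pearson's r of 0.221 and a Spearman's rho of 0.179. This is a description over regions that share the libraries' depth and rest on few detected probes each, and it is too weak to rank deserts by.

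The desert with the highest share by the lower replicate was the run from 1400001 to 2500000 on chromosome 18, between C18orf2 and METTL4, a methyltransferase gene. Reads fell on 5 of its 22 probes in replicate 1 and on 7 in replicate 2, with 566 and 40 reads in all. Both replicates had reads at 3 of these probes. At the probe from 2300001 to 2350000 the level was 226 and 11.0 reads per 1000000 reads of the library (RPM), and at that from 2200001 to 2250000 it was 359 and 2.20 RPM, where 2.20 RPM is a single read. Presence was shared there while the levels differed widely between replicates.

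Next came a desert on chromosome 11 (95850001 to 97000000) between CCDC82 and CNTN5, a contactin gene of neuronal cell adhesion. CNTN5 lay 43 probes further on, and this desert had reads at 4 and 3 of 23 probes, with 11 and 15 reads. Another on chromosome 11 (80950001 to 82100000), between ODZ4 (now TENM4), a teneurin gene, and PRCP, had 3 and 3 probes with 88 and 53 reads, and no probe in common. The desert from 83400001 to 85350000 on chromosome 8, between the sorting nexin gene SNX16 and RALYL, had reads at 5 and 5 of 39 probes, with 605 and 71 reads. The totals of these deserts rest on few probes, and in all 4 of these deserts the tallest probe of replicate 1 had either no read or a single read in replicate 2.

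**Figure D3:**
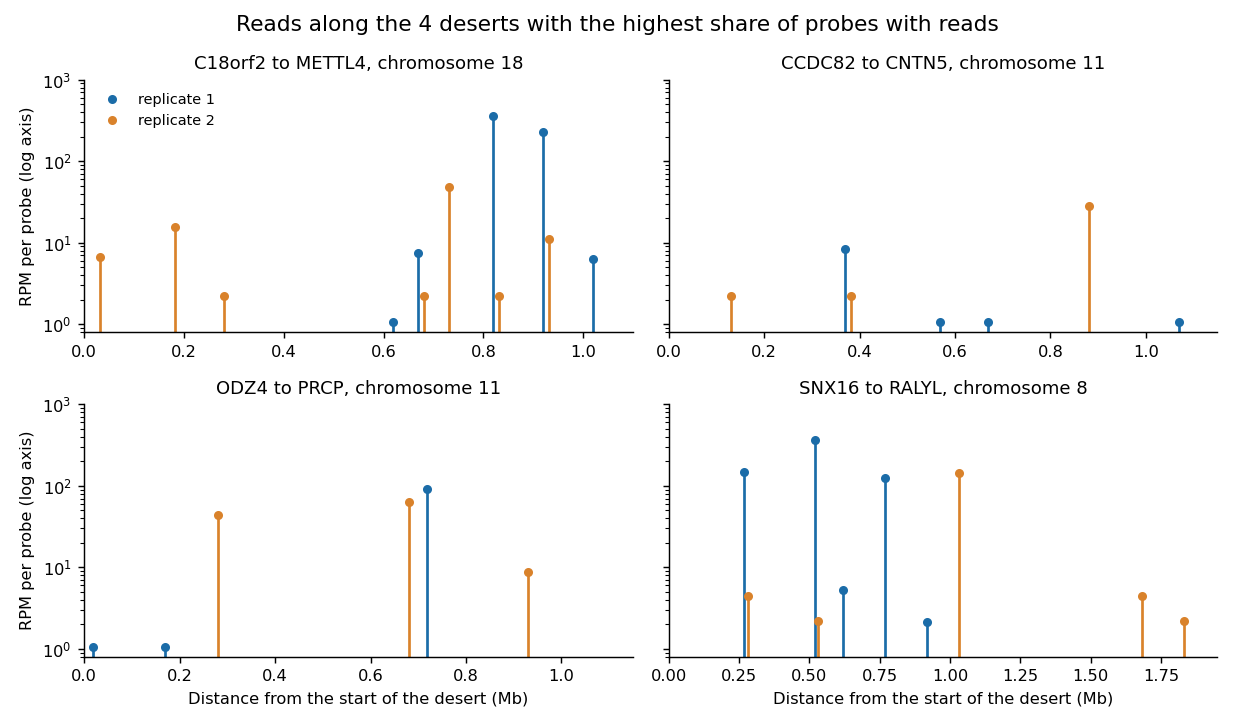
RPM per probe (y axis, log scale, stems drawn from the bottom of the axis) against the distance from the start of the desert (x axis, Mb) for the 4 deserts with the highest share of probes with reads, by replicate; probes without reads have no stem. The desert before METTL4 has reads at 5 and 7 of 22 probes, and its tallest stems, 359 and 226 RPM in replicate 1, meet 2.20 and 11.0 RPM in replicate 2.

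The remaining deserts of the top 8 had reads at 10.7% to 18.5% of their probes in either replicate. The run from 12400001 to 13700000 on chromosome 5, between CTNND2, which encodes a catenin of neuronal junctions, and DNAH5, a dynein gene of cilia, had 3 and 3 of 26 probes, with 3 and 194 reads. On the same chromosome, the run from 50750001 to 52100000 follows ISL1, a transcription factor gene of motor neuron and heart development, and had 5 and 3 of 27 probes with 605 and 18 reads. The run from 85200001 to 87450000 on chromosome 14, between FLRT2, an adhesion and guidance gene, and GALC, a gene of lysosomal lipid breakdown, had 5 and 6 of 45 probes with 36 and 34 reads. The run from 63400001 to 64800000 on chromosome 4 lies between LPHN3 (now ADGRL3), a synaptic adhesion receptor gene, and EPHA5, an ephrin receptor gene, and had 3 and 3 of 28 probes with 3 and 74 reads. Which replicate had more reads varied from desert to desert.

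Single probes with high values in both replicates were few. The probe from 195050001 to 195100000 on chromosome 2, in the desert between TMEFF2 and SLC39A10, a zinc transporter gene, had 164 and 330 RPM (247 ± 118, SD, n = 2), the highest by the lower replicate. That from 183100001 to 183150000 on chromosome 4, before ODZ3 (now TENM3), a teneurin gene, had 87.9 and 381 RPM. The probe from 31000001 to 31050000 on chromosome 5, between the cadherin genes CDH9 and CDH6, had 48.7 and 148 RPM. All 3 lay 100 kb to 150 kb from an end of their desert. The fourth, from 51450001 to 51500000 in the ISL1 desert, had 195 and 33.0 RPM and lay 600 kb from the nearer end.

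After those the lower value dropped to 11.0 RPM or less. It was 16.9 and 11.0 RPM in the FLRT2 desert (86750001 to 86800000) and 10.6 and 81.5 RPM on chromosome 7 between COBL and VSTM2A (52400001 to 52450000). On chromosome 10 between ZWINT and IPMK (58100001 to 58150000) it was 11.6 and 8.81 RPM. The highest desert probe of replicate 1, in that same ZWINT desert (58450001 to 58500000), had 604 RPM there and no read in replicate 2. The highest of replicate 2, on chromosome 18 (34700001 to 34750000) between BRUNOL4 and PIK3C3, had 634 RPM against 1 read in replicate 1. The highest probe of each replicate thus had at most 1 read in the other.

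Reads in both replicates were found at 38 desert probes, 18.5% of those with reads in replicate 1 and 17.6% of those in replicate 2. In shorter gene-free runs the shares were 21.8% and 19.4% (215 probes), and in gene-overlapping probes 18.7% and 17.9% (382 probes). Over all positions, 0.604% of desert probes had reads in both, against 1.28% of all probes of the 19 chromosomes. Outside the read-free stretches the share was 1.28% in deserts, 1.52% in shorter runs and 1.39% over all probes. The 38 probes lay in 30 deserts. At 10 of the 38 probes a single read in 1 replicate stood against 10 or more in the other. At least 10 reads in both were found at 5, and 5 were within 2-fold in RPM. A single read against 10 or more was thus found at 26.3% of the shared desert probes. In shorter runs this share was 34.4% and in gene-overlapping probes 34.6%, so such disagreement was not more frequent in deserts. The shares within 2-fold were 13.2% in deserts, 14.9% in shorter runs and 12.04% in gene-overlapping probes.

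Levels differed more than presence. Outside the read-free stretches deserts averaged 2.51 and 2.71 RPM per probe, against 4.35 and 4.24 RPM in shorter gene-free runs and 4.37 and 4.33 RPM in gene-overlapping probes. The deserts were at 0.576 and 0.640 of the shorter runs, a difference of -1.68 ± 0.228 RPM (n = 2), and at 0.574 and 0.626 of gene-overlapping probes, -1.74 ± 0.169 RPM. Both are larger than the SD of the replicates. On the 12 chromosomes with at least 100 desert probes outside the stretches, the desert mean lay below that of gene-overlapping probes in both replicates on 10 and above it in both on 0. Against the shorter runs it was below in both on 7 and above in both on 1.

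The mean rests on few probes. The top 10 probes held 53.8% and 43.8% of all desert reads, against 19.4% and 18.4% in the shorter runs and 12.6% and 10.7% in gene-overlapping probes, which are more numerous. With each probe counted at no more than 10 reads, the deserts stood at 0.814 and 0.909 of the shorter runs and at 0.774 and 0.930 of gene-overlapping probes. The cap thus narrowed the gap. Leaving out the top 10 probes of each class, which are a larger part of the detected probes in deserts, widened it, with means of 1.16 and 1.53 RPM in deserts, 3.51 and 3.46 RPM in shorter runs and 3.82 and 3.87 RPM in gene-overlapping probes.

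At least 2 reads were found at 3.42% and 4.80% of desert probes outside the stretches, against 4.01% and 5.13% in shorter runs there and 3.83% and 4.77% of all probes of the 19 chromosomes, stretches included. At least 10 reads were found at 1.71% and 2.38% of desert probes outside the stretches, against 2.53% and 2.62% in shorter runs there. Over all probes these shares were 2.51% and 2.55% outside the stretches, and 2.33% and 2.36% with the stretches included. Of the desert probes with reads, 24.9% (19.1% to 31.4%) in replicate 1 had at least 10 reads, against 36.4% (33.4% to 39.5%) in shorter runs and 36.3% (34.2% to 38.4%) in gene-overlapping probes. In replicate 2 the shares were 32.9% (26.6% to 39.6%), 33.5% (30.7% to 36.3%) and 33.7% (31.7% to 35.7%). The desert interval lay below both others in replicate 1 and overlapped them in replicate 2. Only 1 read was found at 50.2% and 33.8% of these desert probes, at 42.5% and 34.6% in shorter runs and at 39.9% and 30.4% in gene-overlapping probes. At least 100 reads were found at 21 and 8 desert probes, 0.705% (0.437% to 1.08%) and 0.268% (0.116% to 0.528%) of those outside the stretches. In shorter runs these shares were 0.995% (0.838% to 1.17%) and 0.494% (0.385% to 0.624%), lower in deserts in both replicates but with overlapping intervals. The highest desert probe had 570 and 288 reads, against 1818 and 854 in shorter runs and 2012 and 672 in gene-overlapping probes.

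**Figure D4:**
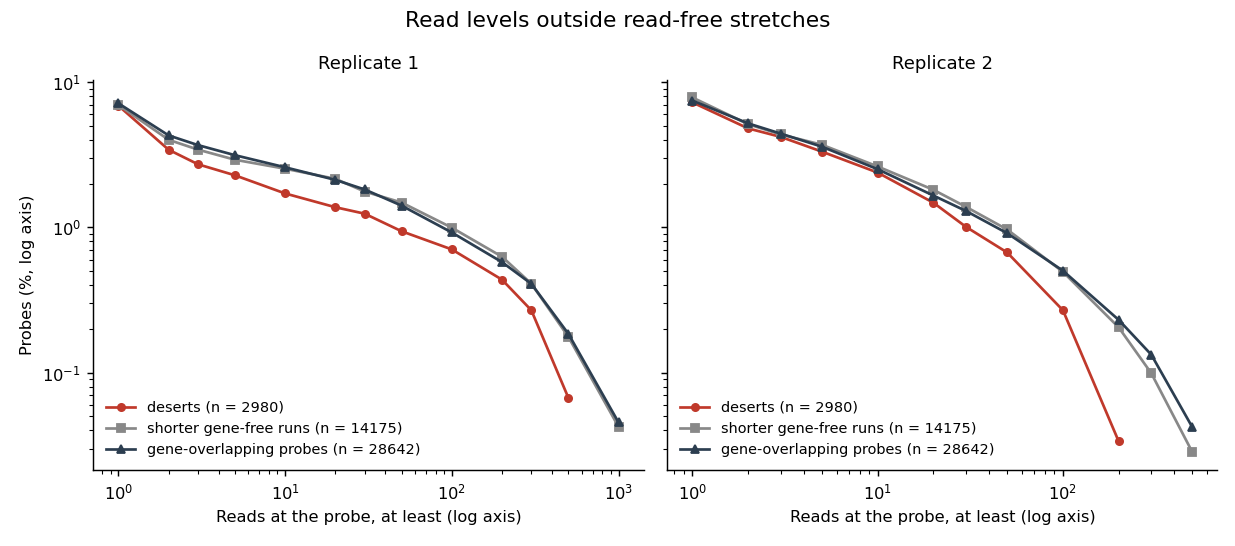
Share of probes (y axis, percent, log scale) with at least a given number of reads (x axis, log scale) outside read-free stretches, in deserts, shorter gene-free runs and gene-overlapping probes, by replicate. The desert curve lies below both others at every number of reads plotted from 1 to 200 in both replicates, close to them at 1 read and further below at 100, which 21 and 8 desert probes reach.

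Within deserts, the share showed no steady trend with distance from the end. Outside the read-free stretches, the 5 probes nearest either end had reads at 7.06% (5.61% to 8.75%) and 8.90% (7.28% to 10.7%) of 1090 positions. Probes at least 10 from both ends had 5.93% (4.42% to 7.76%) and 6.65% (5.05% to 8.57%) of 827. The edge was the higher in both replicates, and the intervals overlap. At 750 kb or more from the ends the shares were 6.38% and 8.39%, within the range of the outer bins. The 5 probes just outside the deserts, gene-bearing or not, had 7.51% and 6.95%. Over all positions of the 108 deserts with reads, the edge lay 5.39 ± 1.09 points above the interior, with the read-free cores of the long runs counted as interior.

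**Figure D5:**
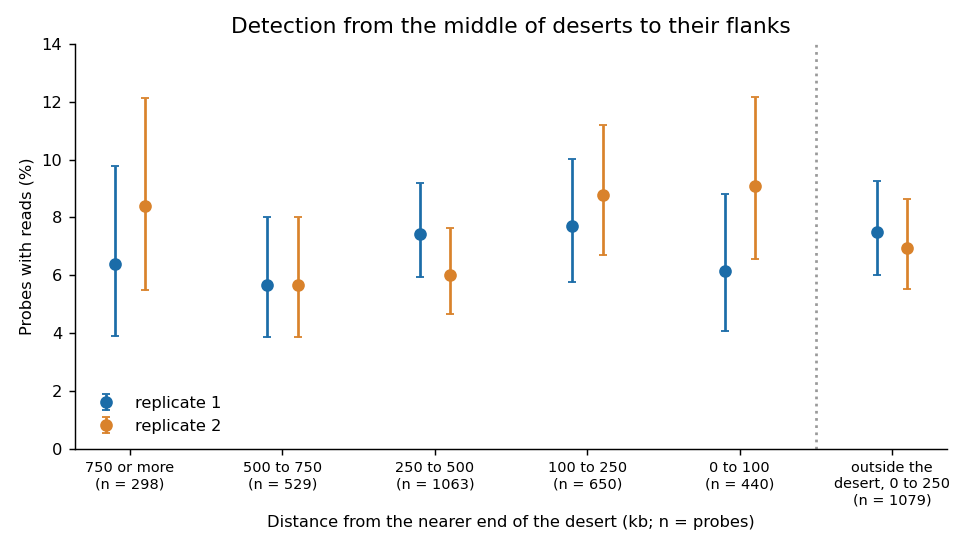
Share of probes with reads (y axis, percent) by distance from the nearer end of the desert (x axis, kb) and, right of the dotted line, in the 5 probes just outside, for replicates 1 and 2 outside read-free stretches, with 95% Clopper-Pearson intervals. The shares lie between 5.67% and 9.09% inside the deserts, with overlapping intervals and no steady trend.

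Deserts were spread unevenly over the chromosomes. Chromosomes 4 and 5 had the most, 16 and 15, and chromosomes 15, 19 and 22 had 1 each. On chromosome 22, 29.1% of all probes belonged to its desert, and on chromosome 10, with 4 deserts, 4.62%. Over all positions, deserts had reads less often than gene-overlapping probes in both replicates on 16 of the 19 chromosomes and more often in both on 0. Outside the stretches this held on 4 of the 12 chromosomes with at least 100 desert probes, with 0 the other way. On chromosome 4 the desert shares outside the stretches were 6.25% and 8.10%, against 8.38% and 8.00% in gene-overlapping probes. On chromosome 5 they were 7.22% and 9.17%, against 8.05% and 7.51%. On both chromosomes the replicates disagreed on the direction.

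Some of the genes beside the deserts were those of neuronal adhesion, which is a feature of the annotation and not of the reads: 31 of the 210 flanking names were on a list of such genes, and the others were not. Of 64 adhesion and surface genes annotated on these chromosomes, 31 (48.4%) were the nearest named gene on a side of a desert, against 210 of all 10277 names (2.04%). The list was chosen with earlier results known and was not tested. Among the adhesion genes were 9 cadherin genes, among them CDH8, CDH9 and CDH18, and 6 protocadherin genes, among them PCDH7 and PCDH10.

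Among the deserts beside adhesion genes, the longest without a read-free stretch was the 3.8 Mb run after PCDH7 on chromosome 4 (30800001 to 34600000), with reads at 5 and 7 of 76 probes and 390 and 211 reads. The run between CDH8 and CDH11 on chromosome 16 (61000001 to 63500000) had 7 and 4 of 50 probes with 775 and 40 reads, 500 of those in replicate 1 from a single probe that had none in replicate 2. The run between CDH9 and CDH6 on chromosome 5 (29150001 to 31200000) had 4 and 4 of 41 probes, with 156 and 77 reads. The run between CDH2 and DSC3 on chromosome 18 (25350001 to 26800000) had no reads. It lies 26 probes from CDH2 and 1 probe from DSC3, within a read-free stretch of 66 probes that also holds 27 gene-overlapping probes.

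By newer annotation most of the deserts that could be checked remain without protein-coding genes. For 118 deserts both flanking names matched genes of the same chromosome in the RefSeq table for GRCh38.p14. Between their flanks 77 have no protein-coding gene now and 41 have at least 1, of which 25 have exactly 1 and the richest has 15. Long non-coding RNA genes lie between the flanks of 114, with a median of 10. Only 77 of 243 desert sides had a printable gene name in the next probe, and the median distance to it was 5 probes, so these neighbours often lie beyond a gene with a clone-based name.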

How the data were processed

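The values that the authors deposited are a signal per 50 kb probe. They are in RPM, scaled to 1000000 reads in each library: 100% of them were whole multiples of 1.06 in replicate 1 and 2.20 in replicate 2, within 0.1 read. Builds and steps: hg18, per the submitters' processing notes; fixation in 2% formaldehyde, HindIII and Csp6I digestion and 30 cycles of inverse PCR, per the labels' protocols. For the aligner, read filters, counting tool and gene annotation: not given in the sources used here. Left out were the last 2 rows of the table, a total and a mean, and the mitochondrial probe. HindIII sites per probe, which limit detection, were not corrected for.

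From these values the reads, the runs and the shares were computed in Python 3.11.15 with pandas 2.3.3 and scipy 1.17.1. The code was tested on simulated data with independently drawn probes, which checks the code and not the size of the differences reported. A probe has reads with at least 1. Each replicate was analysed alone, and differences are given as mean ± SD of both (n = 2). With 1 group there is no contrast between samples for a count test of the recovered reads. Probes within 1 kb of a gene end a run and are in no class.

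The members, lists and tests were chosen with earlier results of these data known. Named by rule were the 6 longest deserts without and with reads, the 8 with the highest share and the 8 highest probes by the lower replicate; the highest probe of each replicate, the other deserts without reads and the examples beside adhesion genes were chosen after their values were seen. Of 210 flanking names, clone-based ones left out, 170 matched RefSeq symbols and 39 synonyms, used for names and neighbours alone. Deserts beside a second gene list, of developmental regulators, are not reported here.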

Additional observations from a re-analysis of the deposited data

How the results depend on the processing

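There is 1 group, so a change of direction is judged on the mean of both replicates. Of 82 alternative values 14 stayed close to the main value, 68 moved and 0 reversed, and the 39 differences in share or level between deserts and other probes all stayed below 0 in the mean of both replicates. The main values over all positions were a desert share of 3.35%, a share of 5.12% in deserts with reads, differences in share from gene-overlapping probes and from shorter runs of -3.88 and -3.99 points, a difference in level from shorter runs of -3.02 RPM, an edge minus interior of 5.39 points, 18.1% of detected desert probes shared, and 108 deserts with reads. Given in that order where they moved: requiring 2 reads gave 1.95%, 2.98%, -2.75, -2.58, edge 3.32 and shared 14.3%; 10 reads gave 0.970%, 1.48%, -1.56, -1.59, edge 1.19, shared 8.42% and 66 deserts. Runs of at least 10 probes gave 5.07%, 7.12%, -2.16, -2.19, -1.93 RPM, shared 20.4% and 376 deserts; runs of at least 40 gave 1.39%, 2.83%, -5.85, -5.82, -3.57 RPM, edge 7.44, shared 22.6% and 20 deserts. Without read-free stretches of 60 probes the values were 7.06%, 7.36%, -0.237, -0.337, -1.68 RPM and edge 1.94 (deserts with reads only), and without those of 100 probes 5.86%, 6.58%, -1.41, -1.52, -2.12 RPM and edge 3.48. With stretches found in the other library they were 6.95%, -0.493, -0.641 and -1.78 RPM for 60 probes, and 5.96%, -1.33, -1.45 and -2.07 RPM for 100. Setting the 16 deserts without reads aside gave -2.11, -2.22 and -2.37 RPM, and only those of 60 or more probes 4.88%, -2.35, -2.46 and -2.46 RPM. Without the acrocentric chromosomes the values were 4.34%, 5.84%, -3.03, -3.14, -2.59 RPM and shared 16.6%, and without chromosome ends 3.51% and shared 17%. On other scales the level difference was -0.354 RPM with each probe capped at 10 reads, -0.0730 RPM with the cap and the stretches of 60 removed, -0.529 RPM for the median of detected probes (-1.06 in replicate 1 and 0 in replicate 2), and -0.15 and -0.27 for mean log2 with 1 and 0.1 RPM added. Leaving out each replicate gave 3.26% to 3.43%, 4.99% to 5.25%, -3.96 to -3.81, -4.34 to -3.64, -3.13 to -2.91 RPM, edge 4.62 to 6.16 and shared 17.6% to 18.5%. The stretches of 100 probes, those found in the other library, the cap with stretches removed and the edge outside stretches were chosen after seeing the data. The causes of these shifts were not tested beyond what removing read-free probes does by construction. No paired analysis was possible because there is 1 group. Most deserts hold few detected probes, so depth limits any statement on a single desert.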
